A study of Mus musculus with 8 samples.

Results

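The genes described here are 39 genes of the actin cytoskeleton and of the transcription factor SRF (serum response factor), followed in 8 mRNA libraries of cultured mouse lung group 2 innate lymphoid cells (ILC2s, tissue lymphocytes that make type 2 cytokines). The cells came from C57BL/6 mice (C57BL/6 J of both sexes, aged 6 to 10 weeks, in the methods) that had been given IL-33, were enriched from lung and were cultured with IL-2, IL-7 and IL-33, so every library shares these alarmin and cytokine treatments. Then 4 samples received 5 µM Yoda1, a chemical agonist of the mechanosensitive cation channel Piezo1, and 4 received the vehicle DMSO at 0.1%, both for 3 h. Nothing in the sources used here says if each sample was a mouse or a culture of its own, so each p-value measures only the spread between these samples. Genes were taken by symbol from the 23183 genes in the files. Of the 39, 38 were found by symbol and Diaph1 under its RefSeq synonym Diap1. All 39 had at least 10 counts in 4 or more libraries, and all 39 were among the 12239 genes tested.

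Actin filaments assemble from monomers, and several factors control where this happens: the Arp2/3 complex branches filaments, formins and profilin extend them, and cofilin with its partners takes them apart. Myosin II pulls on the filaments, and crosslinkers and linkers tie them to each other, to integrins and to the plasma membrane. Monomeric actin holds the SRF cofactors of the MRTF family in the cytoplasm, so that filament assembly frees them to activate SRF, which binds a short AT-rich element known as the CArG box. Many of its targets are themselves actin genes, and another class of targets, the immediate early genes, is reached through the ternary complex factors Elk1, Elk3 and Elk4 downstream of MAP kinase. In lymphocytes this machinery serves migration, shape change and contact formation.

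Of the 39 genes, 6 passed the test between Yoda1 and DMSO, with differences that were small. In each library, counts were scaled to a common library total with TMM factors (normalized CPM), and Yoda1 was set against DMSO with the quasi-likelihood F-test of edgeR, with p-values adjusted by Benjamini and Hochberg's method across the tested genes ("adjusted p", threshold 0.05). Vcl and Tagln2 were higher with Yoda1, and Actb, Cnn2, Tpm4 and Coro1a were lower. These 6 of 39 are 15.4%, beside 10.9% of all genes tested that passed the same threshold, with 6.04% higher and 4.84% lower. The 4 DMSO and 4 Yoda1 values did not overlap for 7 of the 39 genes (17.9%), beside 15.5% of all genes tested. The median log2 fold change of the 39 genes was -0.0056, with 18 above 0 and 21 below, and that of all genes tested was -0.0053. The median absolute log2 fold change was 0.054 for the 39 genes and 0.085 for all genes. The number of calls in each direction depended on the scaling. With library size only, 1 of the 39 was higher and 7 were lower, where all genes gave 553 higher and 809 lower. Upper-quartile factors also gave 1 higher and 7 lower, where all genes gave 505 and 958, against 739 and 592 with TMM. Without DMSO replicate 3, Yoda1 replicate 1 or Yoda1 replicate 4, 3 of the 39 passed in each case. All genes gave 1012, 955 and 893 calls in these 3 settings, against 1331 with all libraries.

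**Figure D1:**
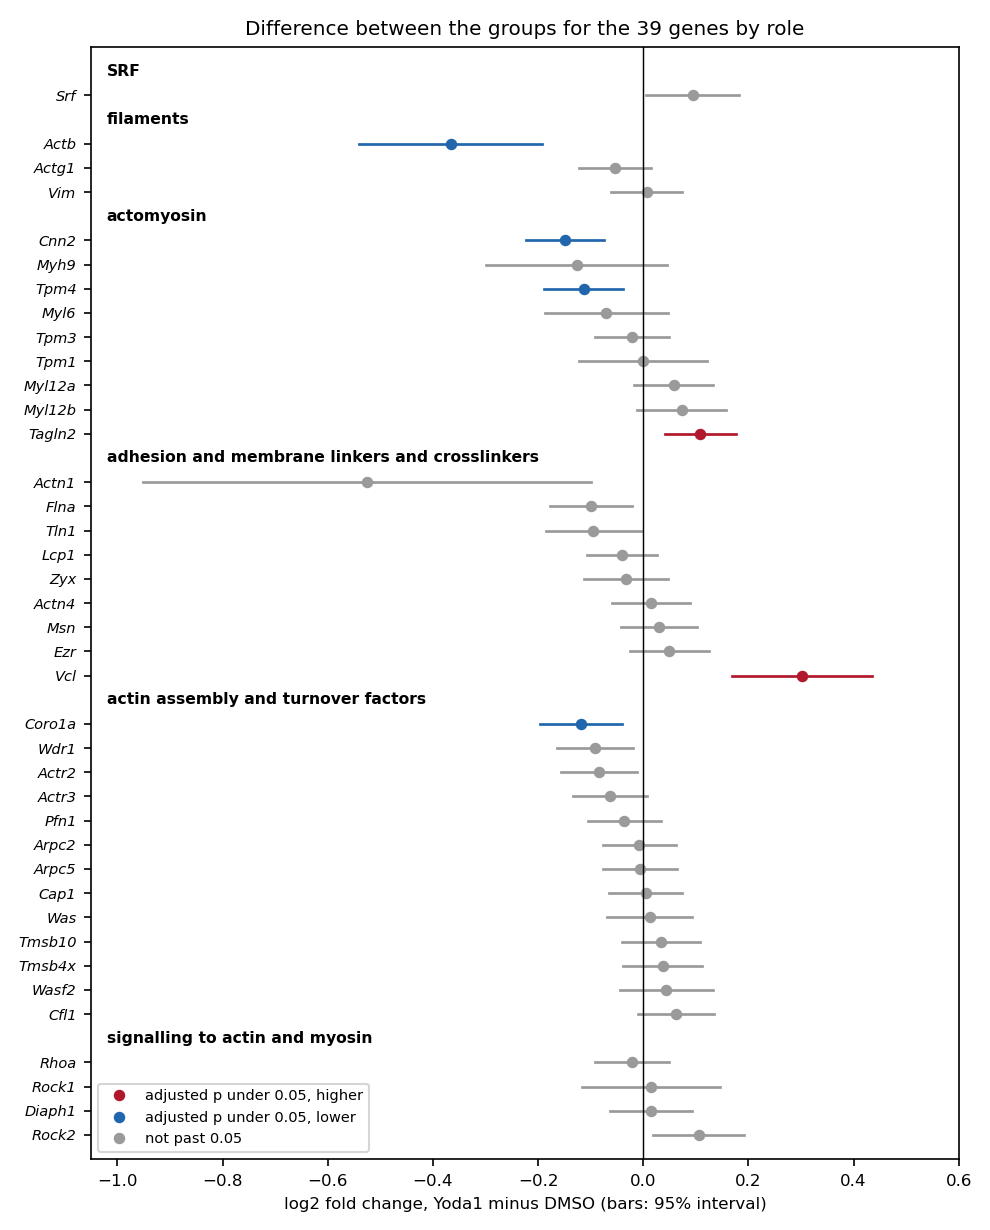
Log2 fold change of each of the 39 genes (x axis, Yoda1 minus DMSO, n = 4 libraries per group), grouped by role on the y axis, with bars for the 95% interval of the edgeR fit, not adjusted for the number of genes. Red and blue points are the 2 genes that passed an adjusted p of 0.05 as higher and the 4 that passed as lower, and most of the other intervals include 0.

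The TMM factors lay near 1 but split by group, the labels gave no batch or date, and the ILC2 label fitted the markers. The factors ran from 1.0031 to 1.0099 with DMSO and from 0.9879 to 0.9965 with Yoda1. Total counts ran from 12438009 to 19534653, and the 10 most abundant genes held 5.60% to 6.04% of the counts. All 11 ILC2 markers examined were detected, with a summed level of 14179 to 14648 normalized CPM with DMSO and 16125 to 16483 with Yoda1, and 6 of the 11 passed the threshold, all as higher. Of 7 fibroblast or smooth muscle markers, 2 had enough counts to be tested, the summed level was 6.32 to 7.69 with DMSO and 4.05 to 5.19 with Yoda1, and Col3a1 was at 0 in every library while Acta2 had at most 4 counts. Of 4 NK cell markers all were tested and 2, Prf1 and Eomes, were higher. Ncr1 and Klrb1c went the other way (log2 fold change -0.23 and -0.21) and did not pass the threshold. The 4 summed to 414 to 465 with DMSO and 466 to 491 with Yoda1. Prf1 gave most of this sum, at 367 to 415 with DMSO and 416 to 435 with Yoda1. The 5 T cell markers summed to 69.0 to 76.8 and 74.2 to 84.2. Markers of other cells stood low in both groups, at 0.148 to 0.365 for 3 B cell genes, 2.37 to 3.92 for 4 macrophage genes, 3.62 to 5.11 for 4 mast cell or basophil genes and 1.16 to 2.26 for 3 epithelial genes, with Sftpc and Scgb1a1 at 0. Of the 3 endothelial markers, which summed to 212 to 225, Pecam1 gave nearly all of the counts, and Cdh5 and Cldn5 had at most 3 and 1. In bulk RNA, fewer cells of one kind and less RNA per cell cannot be told apart, and the part of the marker differences in the results below was not tested.

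Srf itself, the gene that encodes SRF, was detected in every library. It measured 88.7, 89.2, 85.0 and 86.8 normalized CPM in DMSO replicates 1 to 4 and 92.5, 97.2, 96.9 and 87.2 in Yoda1 replicates 1 to 4. The Yoda1 libraries tended to sit above the DMSO libraries, but Yoda1 replicate 4 lay within the DMSO range and the groups overlapped. Srf did not pass the threshold (log2 fold change 0.094 ± 0.043 (SE, n = 4 per group), adjusted p = 0.167), with a mean of 87.4 ± 1.89 (SD) with DMSO and 93.4 ± 4.69 with Yoda1. The 95% interval of its log2 fold change ran from 0.0062 to 0.18 before adjustment. No alternative setting brought Srf past the threshold, with adjusted p from 0.0875 to 0.364.

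The CArG box was then looked for in the promoters, taken from RefSeq on GRCm38.p6 as the 250 bases before to the 50 bases after each gene's start. The box searched was CC, then 6 bases that are each A or T, then GG, and it reads as a CArG box on either strand. A promoter was at hand for 36 of the 39 genes, and Actb, Rock1 and Diaph1 had none. The 5 promoters that hold a box, 13.9% of the 36, are shown because they carry the element by which SRF is known to find its targets, with the boxes in capitals and each sequence 5′ to 3′ along the gene.
Srf promoter, chr17:46556113-46556412, minus strand: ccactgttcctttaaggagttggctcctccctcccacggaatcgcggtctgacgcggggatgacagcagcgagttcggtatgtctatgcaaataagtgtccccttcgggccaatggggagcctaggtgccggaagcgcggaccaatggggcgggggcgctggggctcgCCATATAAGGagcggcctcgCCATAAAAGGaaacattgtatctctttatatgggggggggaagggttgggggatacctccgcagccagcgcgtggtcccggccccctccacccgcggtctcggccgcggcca
Actg1 promoter, chr11:120348446-120348745, minus strand: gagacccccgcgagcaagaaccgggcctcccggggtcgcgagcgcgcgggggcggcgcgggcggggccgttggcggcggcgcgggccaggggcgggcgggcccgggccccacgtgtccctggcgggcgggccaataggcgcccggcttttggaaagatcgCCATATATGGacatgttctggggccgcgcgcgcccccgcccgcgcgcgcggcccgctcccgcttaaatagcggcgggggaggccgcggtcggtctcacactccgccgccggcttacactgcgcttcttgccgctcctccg
Cnn2 promoter, chr10:79988350-79988649, plus strand: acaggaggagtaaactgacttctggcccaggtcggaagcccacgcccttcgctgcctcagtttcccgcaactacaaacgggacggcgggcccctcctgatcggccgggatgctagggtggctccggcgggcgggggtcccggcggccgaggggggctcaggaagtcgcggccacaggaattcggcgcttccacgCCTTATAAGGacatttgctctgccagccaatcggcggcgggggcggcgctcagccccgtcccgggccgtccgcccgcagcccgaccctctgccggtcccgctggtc
Myl6 promoter, chr10:128492960-128493259, minus strand: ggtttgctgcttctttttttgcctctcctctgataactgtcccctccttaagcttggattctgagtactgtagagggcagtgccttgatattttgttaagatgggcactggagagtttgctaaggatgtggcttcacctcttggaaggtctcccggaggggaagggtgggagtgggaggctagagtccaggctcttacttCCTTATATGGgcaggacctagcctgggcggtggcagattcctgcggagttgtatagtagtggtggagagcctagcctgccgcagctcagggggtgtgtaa
Vcl promoter, chr14:20929148-20929447, plus strand: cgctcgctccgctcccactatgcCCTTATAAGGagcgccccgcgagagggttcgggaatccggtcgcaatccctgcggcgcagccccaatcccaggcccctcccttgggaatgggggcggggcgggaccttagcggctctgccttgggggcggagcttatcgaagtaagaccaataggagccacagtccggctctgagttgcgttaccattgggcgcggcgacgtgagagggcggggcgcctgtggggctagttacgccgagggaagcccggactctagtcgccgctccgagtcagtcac
The Srf promoter holds 2 boxes, 82 and 62 bases before the start. The single boxes lie 90 bases before the start in Actg1, 56 in Cnn2, 50 in Myl6 and 227 in Vcl. For comparison, 1.63% of all 32851 promoters and 1.81% of all 27025 genes hold a box. The 39 were chosen as actin and SRF target genes, so their higher share is no test. The 5 genes did not move one way: Vcl was higher, Cnn2 was lower, and Srf, Actg1 and Myl6 did not pass the threshold. The starts are those of RefSeq, and GENCODE annotates an earlier start for Myl6. A match is only a run of letters in this window, and a promoter without one may hold a box elsewhere.

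Among the filament genes, the transcript of β-actin fell while those of γ-actin and vimentin did not pass the threshold. Actb, which encodes β-actin and is often used as a reference gene, measured 4291, 5421, 4878 and 4719 normalized CPM in DMSO replicates 1 to 4 and 3684, 4144, 3555 and 3599 in Yoda1 replicates 1 to 4. Every Yoda1 library lay below every DMSO library, and DMSO replicate 2 was the highest and Yoda1 replicate 3 the lowest. The mean fell by 22.4%, from 4827 ± 467 (SD) to 3746 ± 271 normalized CPM (log2 fold change -0.37 ± 0.076 (SE, n = 4 per group), adjusted p = 0.018). The call depended on single libraries: without DMSO replicate 3 the adjusted p was 0.0619 and without Yoda1 replicate 3 it was 0.057, with the log2 fold change between -0.42 and -0.31 over all single libraries left out. Actb lies at chr5:142903115-142906754 on the minus strand (GRCm38) with 6 exons, and 14.2% of the 50-base windows of its principal transcript also occur in other annotated transcripts, chiefly Lrrc58 (9.57% of windows, log2 -0.20, adjusted p = 0.590).

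Actg1, which encodes γ-actin, the other cytoplasmic actin, measured 4102, 4303, 4203 and 4280.1 normalized CPM in DMSO replicates 1 to 4 and 4009.5, 4079, 4179 and 3999 in Yoda1 replicates 1 to 4. The ranges overlapped, since Yoda1 replicate 3 lay above DMSO replicate 1, and the means were 4222 ± 90.8 and 4067 ± 83.1 (log2 fold change -0.054 ± 0.033 (SE, n = 4 per group), adjusted p = 0.327). The ratio of Actb to Actg1 counts was 1.05, 1.26, 1.16 and 1.10 in the DMSO libraries and 0.919, 1.02, 0.851 and 0.900 in the Yoda1 libraries. Their principal transcripts are 1.92 and 1.95 kb long. Actb thus gave more counts than Actg1 in every DMSO library and fewer in 3 of 4 Yoda1 libraries, and the ratios did not overlap between the groups. The sum of both transcripts was 9049 ± 545 (SD) normalized CPM with DMSO and 7813 ± 279.9 with Yoda1. For Actg1, 56.7% of the windows occur in other transcripts, above all the processed pseudogene Gm12715 (51.1%), so reads could be split or shared between them. Vim, the intermediate filament gene of mesenchymal cells and leukocytes, stood at 5841 to 6017 normalized CPM with DMSO and 5849 to 6088 with Yoda1 (log2 0.0064, adjusted p = 0.932).

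**Figure D2:**
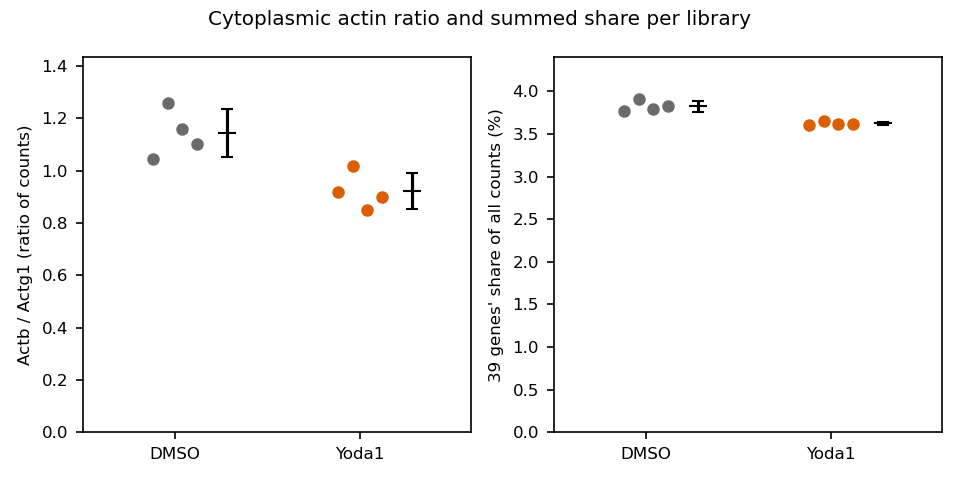
Left, the ratio of Actb to Actg1 counts in each library, and right, the share of all counts (%) held by the 39 genes, without TMM factors. Each library is 1 point (grey DMSO, orange Yoda1), with the mean and its SD beside the points. Both measures were lower in each of the 4 Yoda1 libraries than in any DMSO library: the ratio was at least 1.05 with DMSO and at most 1.02 with Yoda1.

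Together the 39 genes held 3.77% to 3.91% of all counts in the DMSO libraries and 3.61% to 3.65% in the Yoda1 libraries. Without Actb the share was 3.30% to 3.37% with DMSO and 3.24% to 3.26% with Yoda1, so these ranges did not overlap either way. These are shares of unscaled counts, without the TMM factors (1.0031 to 1.0099 with DMSO, 0.9879 to 0.9965 with Yoda1). Dividing by the factors would bring the groups closer, so the small gap without Actb depends on the scaling. A few genes set these sums. Per kilobase of principal transcript, Tmsb4x led in the DMSO libraries with a mean level of 6527 normalized CPM per kb, followed by Vim with 2708, Actb with 2514, Actg1 with 2163 and Tmsb10 with 1107. Vcl with 5.20 and Actn1 with 0.604 stood at the other end. In the Yoda1 libraries Actg1 (2083) stood above Actb (1951) on this scale, the reverse of their order with DMSO.

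Of the 9 actomyosin genes, 3 passed the threshold, Cnn2 and Tpm4 as lower and Tagln2 as higher. Cnn2, calponin 2, an actin-binding protein of motile and non-muscle cells, measured 263, 255, 261 and 245 normalized CPM in DMSO replicates 1 to 4 and 226, 225, 236 and 237 in Yoda1 replicates 1 to 4. No Yoda1 library reached the lowest DMSO library. The mean fell from 256 ± 8.16 to 231 ± 6.39 (SD, log2 fold change -0.15 ± 0.036 (SE, n = 4 per group), adjusted p = 0.00678). The call held under every alternative setting and with each library left out, with adjusted p from 0.00141 to 0.0354, and no window of Cnn2 is shared with another gene.

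Tpm4 encodes a tropomyosin, a coiled-coil protein that runs along filaments and sets which myosins and cutters can bind. It measured 243, 229, 238 and 244 normalized CPM in DMSO replicates 1 to 4 and 221, 210.3, 227 and 223 in Yoda1 replicates 1 to 4. The groups did not overlap, but DMSO replicate 2 and Yoda1 replicate 3 differed by under 2 normalized CPM (log2 fold change -0.11 ± 0.037 (SE, n = 4 per group), adjusted p = 0.0436). That call was close to the threshold: the adjusted p ran from 0.0677 to 0.145 when DMSO replicate 1, 3 or 4 or Yoda1 replicate 1, 2 or 4 was left out, and DESeq2 gave 0.0577. Of the Tpm4 windows, 16.1% occur elsewhere, mostly in the pseudogene Gm7809. Tagln2, transgelin 2, an actin-binding protein of lymphocytes related to the calponins, measured 749.5, 744, 723 and 728 normalized CPM in DMSO replicates 1 to 4 and 802, 777, 800.1 and 796 in Yoda1 replicates 1 to 4. All Yoda1 libraries lay above all DMSO libraries, with means of 736 ± 12.5 and 794 ± 11.5 (SD, log2 fold change 0.11 ± 0.033 (SE, n = 4 per group), adjusted p = 0.0315). Without DMSO replicate 2, 3 or 4 or Yoda1 replicate 1, 3 or 4 the adjusted p was 0.0602 to 0.1, and with library size only or upper-quartile factors it was 0.089 and 0.132.

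The other 6 actomyosin genes did not pass the threshold. Myh9, the heavy chain of non-muscle myosin IIA, measured 1799, 2181, 2089 and 2069 normalized CPM in DMSO replicates 1 to 4 and 1819, 2091, 1705 and 1839.8 in Yoda1 replicates 1 to 4. DMSO replicate 1 was the lowest of its group and Yoda1 replicate 2 the highest of its own, and the groups overlapped (log2 fold change -0.13 ± 0.075 (SE, n = 4 per group), adjusted p = 0.346). Leaving out DMSO replicate 1 or Yoda1 replicate 2 gave adjusted p values of 0.0442 and 0.023. The light chains showed no common direction, with Myl6, the essential light chain, at -0.070 on the log2 scale (adjusted p = 0.473) and the regulatory light chains Myl12a and Myl12b at 0.058 and 0.074 (adjusted p = 0.337 and 0.273). The annotated genes Myl12a and Myl12b overlap on the minus strand of chromosome 17. Their transcripts share windows (29.2% of those of Myl12a), so reads could be shared between them. The tropomyosins Tpm1 (log2 -0.00066, adjusted p = 0.996) and Tpm3 (log2 -0.021, adjusted p = 0.764) stayed near 0, and 62.4% of the Tpm3 windows also occur in Tpm3-rs7.

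**Figure D3:**
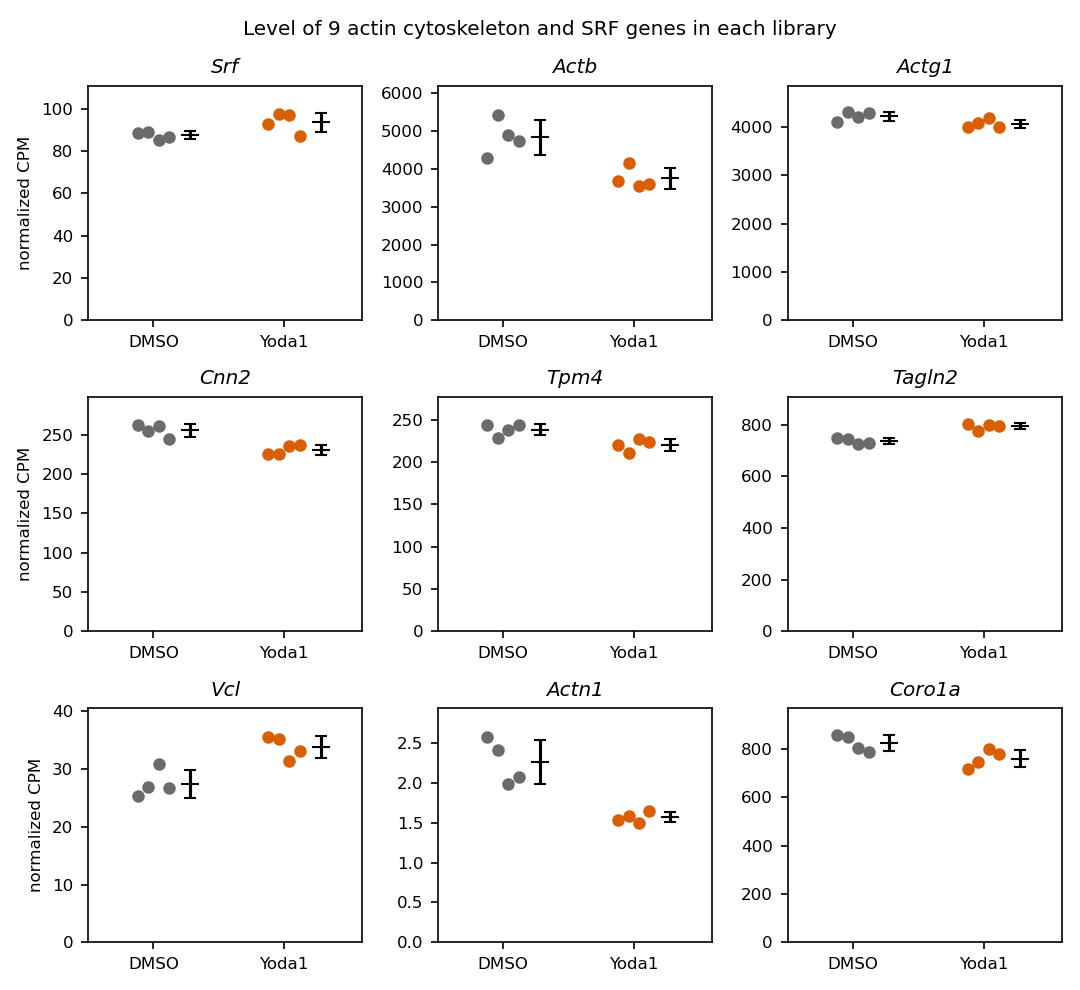
Normalized CPM (y axis, each from 0) of 9 of the genes in the 4 DMSO (grey) and 4 Yoda1 (orange) libraries, with points in replicate order and the mean with its SD to the right. Actb, Cnn2, Tpm4 and Actn1 are lower and Tagln2 and Vcl are higher in all 4 Yoda1 libraries than in any DMSO library, while the groups overlap for Srf, Actg1 and Coro1a.

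Among the 9 adhesion and membrane linkers and crosslinkers, 1 passed the threshold, the integrin-adhesion gene Vcl, which was higher. Vcl encodes vinculin, which binds talin and actin at adhesions and is recruited under force. It measured 25.2, 26.8, 30.9 and 26.6 normalized CPM in DMSO replicates 1 to 4 and 35.4, 35.1, 31.4 and 33.1 in Yoda1 replicates 1 to 4. All Yoda1 libraries lay above all DMSO libraries, though DMSO replicate 3 and Yoda1 replicate 3 nearly met. The mean rose by 23.2%, from 27.4 ± 2.44 to 33.8 ± 1.86 (SD, log2 fold change 0.30 ± 0.065 (SE, n = 4 per group), adjusted p = 0.00221), the largest fold among the 39 genes upwards. The call held in every alternative and with each library left out, with a log2 fold change of 0.26 to 0.36 and adjusted p of 0.000116 to 0.013. Vcl lies at chr14:20929398-21033676 on the plus strand with 21 exons, and overlaps Ap3m1 on the other strand in 39.2% of its windows, and the strand setting of the counting is not given in the sources used here. Ap3m1 itself had means of 78.3 with DMSO and 77.5 with Yoda1 (log2 -0.014, adjusted p = 0.891).

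The partner of vinculin, talin 1 (Tln1), measured 754, 874, 872 and 869 normalized CPM in DMSO replicates 1 to 4 and 763, 839, 769.7 and 782 in Yoda1 replicates 1 to 4. DMSO replicate 1 stood apart from the other 3 DMSO libraries and the groups overlapped (log2 fold change -0.10 ± 0.044 (SE, n = 4 per group), adjusted p = 0.174). Without that library the log2 fold change was -0.14 (adjusted p = 0.00467). Filamin A (Flna), a large crosslinker, showed the same low DMSO replicate 1, at 1234 normalized CPM beside 1328 to 1392 in the other 3 and 1181 to 1292 with Yoda1 (log2 fold change -0.10 ± 0.038 (SE, n = 4 per group), adjusted p = 0.095). It passed the threshold without DMSO replicate 1 (adjusted p = 0.00782) and under library size only (0.037) and upper-quartile factors (0.0262). DMSO replicate 1 was the lowest DMSO library for Actb, Actg1, Myh9, Vcl, Tln1, Flna, Lcp1, Msn, Wasf2, Wdr1, Rock1, Rock2 and Diaph1. That library was the highest of its group for Vim, Myl6, Myl12a, Tpm3, Cnn2, Tagln2 and Actn1. The same held for Arpc2, Arpc5, Actr3, Cfl1, Coro1a, Tmsb4x and Tmsb10, and the cause was not tested.

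Actn1 had the largest log2 fold change of the 39 in either direction but few counts, between 19 and 44 per library. This α-actinin gene measured 2.6, 2.4, 2.0 and 2.1 normalized CPM in DMSO replicates 1 to 4 and 1.5, 1.6, 1.5 and 1.6 in Yoda1 replicates 1 to 4. The groups did not overlap, yet the test did not pass (log2 fold change -0.53 ± 0.21 (SE, n = 4 per group), adjusted p = 0.105). Its relative Actn4, the main non-muscle α-actinin in these cells, stood at 314 and 317 normalized CPM (log2 0.014, adjusted p = 0.855). The remaining genes of this role were within 0.05 of 0 on the log2 scale: Zyx, zyxin of adhesions and stress fibres (log2 -0.033, adjusted p = 0.659), Lcp1, the leukocyte crosslinker L-plastin (log2 -0.040, adjusted p = 0.484), and the membrane linkers Ezr, ezrin (log2 0.050, adjusted p = 0.425), and Msn, moesin (log2 0.030, adjusted p = 0.647).

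Of the 13 actin assembly and turnover factors, 1 passed the threshold, Coro1a, which was lower. Coro1a encodes coronin 1A, a leukocyte protein that acts on Arp2/3 branches. It measured 855, 849, 803 and 787 normalized CPM in DMSO replicates 1 to 4 and 715, 745, 799 and 777 in Yoda1 replicates 1 to 4. Yoda1 replicates 1, 2 and 4 lay below every DMSO library, but Yoda1 replicate 3 lay above DMSO replicate 4, so the groups overlapped. The means were 824 ± 33.4 and 759 ± 36.6 (SD, log2 fold change -0.12 ± 0.038 (SE, n = 4 per group), adjusted p = 0.0445). Without DMSO replicate 1 or 2 or Yoda1 replicate 1, 2 or 4 the adjusted p was 0.0746 to 0.203, and DESeq2 gave 0.0525. The Arp2/3 subunits differed little. Actr3 measured 753, 704, 709 and 749.9 normalized CPM in DMSO replicates 1 to 4 and 702, 695, 698 and 696 in Yoda1 replicates 1 to 4, and although the groups did not overlap it did not pass the threshold (log2 fold change -0.063 ± 0.035 (SE, n = 4 per group), adjusted p = 0.254). Of the Actr3 windows, 49.8% occur in other transcripts, chiefly the processed pseudogene Gm8822 (48.25%). Actr2, the other actin-related subunit, was at -0.085 on the log2 scale (adjusted p = 0.127) and passed with library size only (0.0474) and with upper-quartile factors (0.0301). Arpc2 and Arpc5 were at -0.0076 and -0.0056, with adjusted p of 0.922 and 0.943.

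The activators of Arp2/3 gave like values in both groups, with Was, the Wiskott-Aldrich syndrome protein of blood cells, at 106 and 106 normalized CPM (log2 0.012, adjusted p = 0.888) and Wasf2, a WAVE complex subunit, at 174 and 179 (log2 0.044, adjusted p = 0.575). In the severing group, Cfl1, cofilin, was at 0.063 on the log2 scale (adjusted p = 0.274) and its cofactor Wdr1, which speeds disassembly, at -0.091 (adjusted p = 0.0942). Wdr1 passed the threshold without DMSO replicate 1 (0.0211), with library size only (0.0335) and with upper-quartile factors (0.0225), and was lower in each. Cap1, which recycles monomers, was at 0.0046, and profilin (Pfn1) at -0.036, with adjusted p of 0.952 and 0.556. The monomer-sequestering thymosins Tmsb4x and Tmsb10, the first of which stood highest per kilobase of all 39, were at 0.037 and 0.033 (adjusted p = 0.576 and 0.62).

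The remaining 4 genes, Rhoa, Rock1, Rock2 and Diaph1, signal to actin and myosin. None of the 4 passed the threshold in edgeR, and 1 of them had an unadjusted p under 0.05. The largest difference was in Rock2, a kinase that raises myosin light chain phosphorylation, which measured 109, 115, 118 and 113 normalized CPM in DMSO replicates 1 to 4 and 127, 129, 114 and 120.2 in Yoda1 replicates 1 to 4. Yoda1 replicate 3 lay within the DMSO range, so the groups overlapped (log2 fold change 0.11 ± 0.043 (SE, n = 4 per group), adjusted p = 0.11). Without that library the adjusted p was 0.0365 and the log2 fold change 0.14. Its paralogue Rock1 was at 168 and 170.0 normalized CPM (log2 0.015, adjusted p = 0.917). Rhoa, a small GTPase, was at 332 and 327 (log2 -0.021, adjusted p = 0.764), and the formin Diaph1, which extends filaments, at 378 and 381 (log2 0.015, adjusted p = 0.858). With DESeq2 and with limma-voom none of the 4 passed either.

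**Figure D4:**
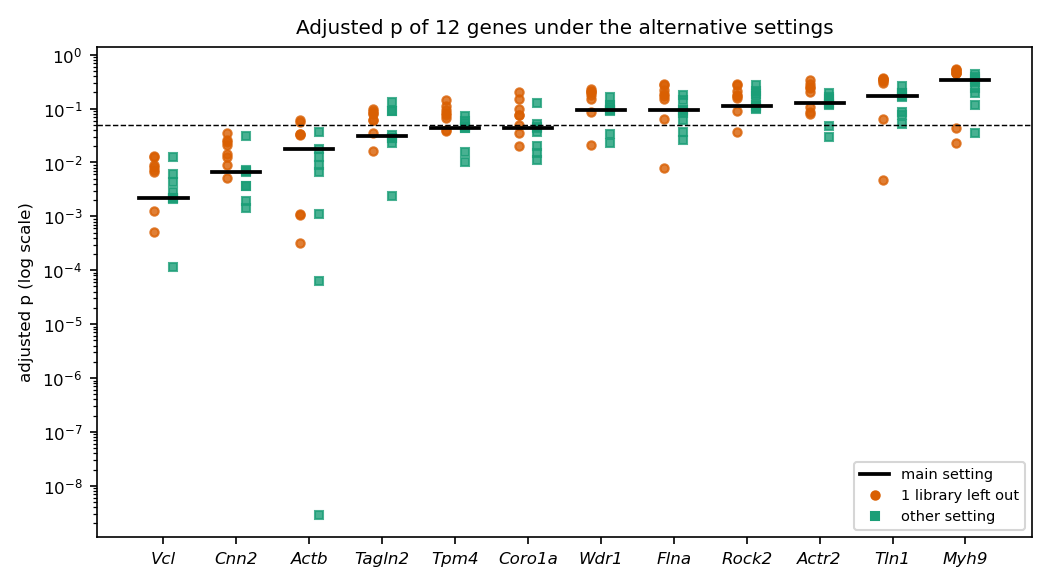
Adjusted p (y axis, log scale) of the 6 genes that passed and of 6 others that passed under at least 1 alternative. Black bars give the main edgeR setting, orange points the fits with 1 library left out, green squares the other settings, and the dashed line 0.05: Vcl and Cnn2 lie below the line throughout, and every other gene shown has points on both sides.

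To set these values beside the wider pathway, 91 related genes in 5 lists were read from the same fit. Of these, 76 were tested and 10 (13.2%) passed, 5 higher and 5 lower, beside 10.9% of all genes tested. Of the 10, 4 are immediate early SRF targets. The SRF cofactors gave 0 of 7 tested past the threshold by edgeR, with 1 at an unadjusted p under 0.05, and DESeq2 and limma-voom also gave 0. Mrtfa, the actin-sensing cofactor, listed under its older symbol Mkl1, measured 72.9, 71.5, 78.6 and 77.8 normalized CPM in DMSO replicates 1 to 4 and 66.8, 72.4, 68.5 and 72.3 in Yoda1 replicates 1 to 4, and the groups overlapped (log2 fold change -0.10 ± 0.046 (SE, n = 4 per group), adjusted p = 0.172). Its relative Mrtfb, listed as Mkl2, was at -0.082 (adjusted p = 0.67). The ternary complex factors Elk1, Elk3 and Elk4 were at 0.12, 0.061 and -0.16 on the log2 scale, with adjusted p of 0.247, 0.335 and 0.694. Elk1 was the only cofactor whose groups did not overlap (1 of 7 tested, 14.3%, beside 15.5% of all genes tested). The MRTF inhibitor Scai (log2 -0.032, adjusted p = 0.768) and the LIM-domain partner Fhl2 (log2 0.11, adjusted p = 0.401) did not pass, and Myocd, the muscle cofactor, was at 0 counts in every library.

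The immediate early targets of SRF reached larger fold changes than the cytoskeletal genes, in a list chosen with earlier results of these data known. Of 8 tested, 4 passed (50%, beside 10.9% of all genes tested), all higher. All 8 had a log2 fold change above 0, with a median of 0.34. The 4 that passed did so with each library left out and under every other setting. Egr3 measured 10.5, 11.9, 11.6 and 15.6 normalized CPM in DMSO replicates 1 to 4 and 30.4, 32.9, 33.1 and 32.2 in Yoda1 replicates 1 to 4, Egr2 rose from 6.21 ± 1.27 to 16.1 ± 1.73 (SD), Fosb from 2.35 ± 0.763 to 5.93 ± 0.788 and Egr1 from 31.7 ± 1.73 to 42.7 ± 2.03. Their log2 fold changes were 1.39, 1.38, 1.34 and 0.43, with adjusted p of 6.31e-13, 9.96e-10, 3.28e-06 and 3.06e-06. These genes encode transcription factors that many calcium and kinase signals induce. Fos (log2 0.25, adjusted p = 0.17), Ier2 (log2 0.047, adjusted p = 0.576), Junb (log2 0.024, adjusted p = 0.764) and Mcl1 (log2 0.054, adjusted p = 0.338) did not pass. Promoters were at hand for only 5 of these 8 genes, and of those 5 only that of Egr2 holds a CArG box. The promoters of the rest were not searched. Among the other contractile and matrix targets of SRF, 0 of 11 tested passed by edgeR, with 1 at an unadjusted p under 0.05, DESeq2 and limma-voom also gave 0, and 12 more had too few counts to be tested. Acta1, Acta2, Actc1, Actg2, Cnn1, Myl9, Tpm2 and Ccn1 had at most 4 counts in any library, and Ccn2 had 0. In this list 7 of 15 promoters at hand (46.7%) hold a CArG box, but its genes were picked as SRF targets. The smooth muscle marker Myh11, at 40 to 87 counts per library, was lower with Yoda1 (log2 -0.46, adjusted p = 0.0380), but not without any of DMSO replicates 1, 2 and 4 and Yoda1 replicates 2, 3 and 4 (0.0513 to 0.110).

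**Figure D5:**
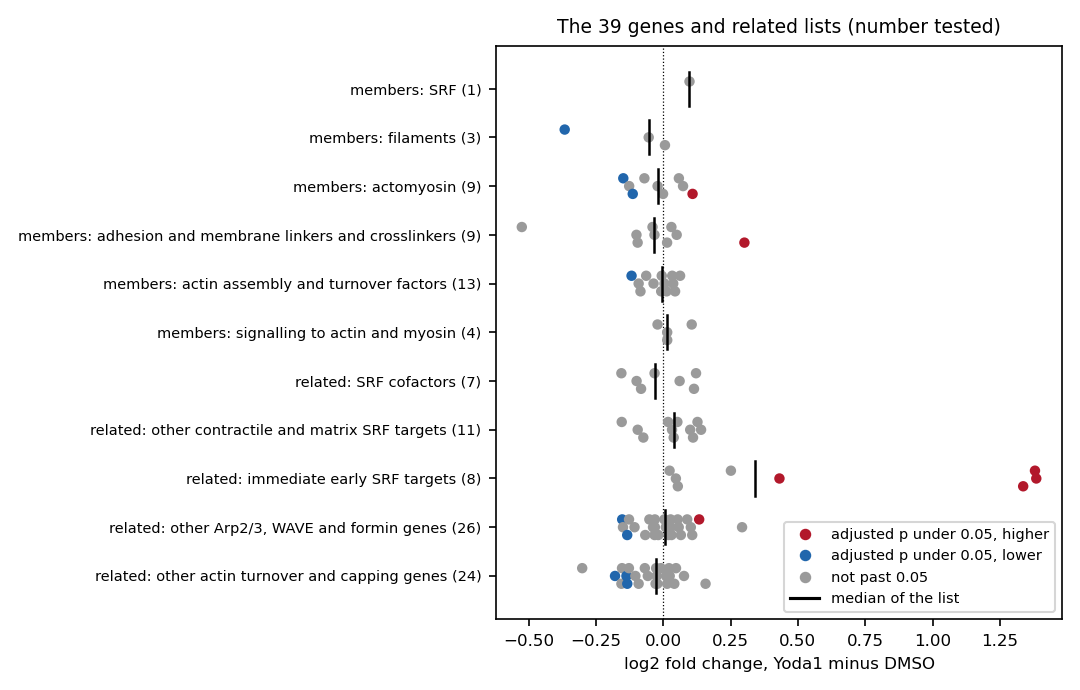
Log2 fold change (x axis, Yoda1 minus DMSO) of the 39 genes by role and of the tested genes of the 5 related lists, 1 point per gene, with the number tested in brackets and a black line at each median. Immediate early SRF targets reach 1.39, while the 39 genes lie between -0.53 and 0.30.

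In the remaining lists, calls went both ways, with small log2 fold changes. Among 26 tested genes of the Arp2/3, WAVE and formin machinery, 3 (11.5%) passed, 1 higher and 2 lower, beside 10.9% of all genes tested. Wipf1, which stabilises the Wiskott-Aldrich syndrome protein, was higher (log2 0.13, adjusted p = 0.0111). The drebrin-like adaptor Dbnl (log2 -0.15, adjusted p = 0.00701) and the formin Inf2 (log2 -0.13, adjusted p = 0.032) were lower. The Wipf1 call was lost without Yoda1 replicate 4 (adjusted p = 0.0554) and that of Inf2 without DMSO replicate 2 or 3 or Yoda1 replicate 1 or 4 (0.0718 to 0.139), while that of Dbnl held with each library left out. The count in this list was 5 without DMSO replicate 1 and 1 without Yoda1 replicate 4, where all genes gave 1484 and 893. Among 24 tested turnover and capping genes 3 (12.5%) passed, all lower, beside 10.9% of all genes tested. They were the coronins Coro1c (log2 -0.13, adjusted p = 0.0158) and Coro7 (log2 -0.18, adjusted p = 0.00944) and the spectrin-actin linker Add1 (log2 -0.14, adjusted p = 0.0222). Coro1b, the other coronin on the lists, named after its value was seen, did not pass (log2 0.010, adjusted p = 0.898). Coro7 was lost without DMSO replicate 3 (0.0665), Coro1c without DMSO replicate 2 or Yoda1 replicate 1 (0.0603 to 0.0855), and Add1 without DMSO replicate 2 or 4 or Yoda1 replicate 1, 3 or 4 (0.0592 to 0.0987). The count was 5 without DMSO replicate 1 and 1 without DMSO replicate 2, where all genes gave 1484 and 905.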

How the data were processed

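Poly(A) mRNA libraries (NEBNext Ultra II Directional) were sequenced on an Illumina NovaSeq. For each library the authors deposited whole-number read counts by gene symbol, without normalization. Per the methods, reads went through FastQC, then FASTX Trimmer with BBMap, and expression through Cufflinks with Cuffdiff, while the submitters' processing notes list TopHat and mm10. Versions, the annotation and the strand setting are not given in the sources used here.

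The 39 genes, their roles and the related lists were chosen with earlier results of these data known. Of the lists, 1 is not reported here. Counts were filtered with filterByExpr (minimum count 10, minimum total 15), scaled with TMM and fitted in R 4.3.3 with edgeR 4.0.16 (robust quasi-likelihood, no covariate, all 8 libraries, Benjamini-Hochberg adjustment at 0.05), after the fit had been tested on simulated data. The SE is the size of the log2 fold change over the root of F. Alternatives were library size only, upper-quartile factors, DESeq2 1.42.0, limma-voom (limma 3.58.1), other count filters, the replicate number as a term, and each library left out. Values in every library were given for Srf, Actb, Actg1, each of the 39 genes past the threshold and the gene with the largest difference in each role, and others were added where a single library decided a value. Intervals cover 95%. Transcripts came from GENCODE M21 (GRCm38), with windows of 50 bases matched exactly on both strands to find shared sequence, and promoters from RefSeq (GRCm38.p6). Of the 39 genes, 14 had over 10% of windows shared. Those whose share is not given above were Myl6 (53.25%), Tmsb10 (43.5%), Rhoa (25.1%), Cfl1 (23.0%), Lcp1 (14.4%), Myl12b (11.4%) and Actn1 (10.2%).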

Additional observations from a re-analysis of the deposited data

Results flagged for a closer look

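In the 78 groups of 4 libraries formed by the 39 genes, 2 held a library whose gap to its nearest neighbour took up nearly the whole range of its group, beside 3.9 that chance alone would give at 1 in 20. Tln1 in DMSO replicate 1 measured 753.7 normalized CPM, with the next library at 869.2. Myl12b in Yoda1 replicate 2 measured 140.6, with the next at 148.2. The cause of either value was not tested.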

How the results depend on the processing

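Over the 39 log2 fold changes and 16 alternatives, 549 of 624 values kept their direction and their side of the threshold, 26 lost a call, 13 gained one and 36, all of genes near 0 and not called, changed sign. With library size only, 1 of the 39 genes was higher and 7 lower, with a median log2 fold change of -0.027, 2 linkers and 3 assembly factors called, and 5 turnover genes called in the related list. With upper-quartile factors, 1 was higher and 7 lower, with a median of -0.036, 2 linkers, 3 assembly factors and 6 related turnover genes called. DESeq2 left 2 lower and 0 assembly factors called. Sign changes with library size only were Vim -0.015, Actn4 -0.0072, Was -0.0091, Cap1 -0.017, Rock1 -0.0068 and Diaph1 -0.0068, and with upper-quartile factors Vim -0.024, Actn4 -0.016, Msn -0.00015, Was -0.018, Cap1 -0.026, Rock1 -0.016 and Diaph1 -0.016. Tpm1 turned to 0.0040 with DESeq2, 0.0014 without a filter and 0.00019 with at least 10 counts in every sample. These were shifts of genes close to 0, and upper-quartile factors moved the median of all genes to -0.036 as well.

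With 1 library left out in turn, 3 to 8 of the 39 passed, 1 to 2 higher and 2 to 6 lower. The counts were 0 to 1 for filaments, 1 to 3 for actomyosin, 1 to 3 for linkers and 0 to 1 for assembly factors, and in the related lists 0 to 1 for contractile targets, 1 to 5 for Arp2/3, WAVE and formin genes and 1 to 5 for turnover genes. The log2 fold changes that changed sign ranged over Vim -0.0019 to 0.016, Tpm1 -0.029 to 0.032, Actn4 -0.0050 to 0.041, Was -0.011 to 0.026, Arpc2 -0.018 to 0.0034, Arpc5 -0.021 to 0.0080, Cap1 -0.011 to 0.016, Rock1 -0.040 to 0.051 and Diaph1 -0.021 to 0.036. Leaving out a library leaves 3 in its group, and all genes then gave 893 to 1484 calls.

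The labels number the replicates 1 to 4 in both groups, but nothing says that a number marks a shared mouse or day. Deviations of same-numbered libraries correlated at 0.048, 0.071, -0.028 and 0.00023, and not every library correlated best with its own number. With the replicate block, 3 of the 39 passed, 1 higher (Vcl) and 2 lower (Actb and Cnn2), with 1 actomyosin gene and 0 assembly factors, and Tpm1 was at 0.00086. Over all genes the block gave 966 calls. Depth limits Actn1 most, at 19 to 44 counts per library. Intervals cover the spread between these libraries alone.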
